A study of Homo sapiens with 9 samples.

Results

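The comparison was of cells given SKF-96365 with control cells, 3 RNA-seq libraries each, and so used 6 of the 9 libraries of the series. Members were taken by their labels: the control libraries have no treatment named, and the SKF-96365 libraries name that compound alone. All cells were labelled HepG2, an established hepatocellular line, with no genetic change named in either group. The other 3 libraries, from cells given 2-APB, entered only where the spread per gene was estimated and as extra values beside a gene. They were assigned by their treatment label, since their titles read ABP and their columns in the deposited table carry the name TRPV2. Dose, exposure time, vehicle and culture are not given in the labels. P-values therefore measure the spread between these libraries, which may be technical.

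SKF-96365 is a small molecule used to block receptor-operated and store-operated calcium entry, and it acts on several TRP and other calcium channels. The series names it as an inhibitor of TRPV2, a cation channel of the TRP family. In store-operated entry, STIM proteins sense the emptying of the endoplasmic reticulum and open ORAI channels in the plasma membrane. Calcium that enters binds calmodulin, which activates the phosphatase calcineurin, and calcineurin lets NFAT transcription factors enter the nucleus.

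The 6 libraries held 15999490 to 19026545 reads, and mitochondrially encoded genes took 6.90% to 8.01% of their signal. The table lists 61093 genes. Those with at least 10 normalized counts in 3 or more of the 9 libraries, 17492 in all, were tested. The HepG2 label was not borne out by hepatocyte markers. ALB, which encodes albumin, was at most 9.39 normalized counts in control and 7.86 with SKF-96365, and the highest values of AFP, which encodes alpha-fetoprotein, were 5.22 and 4.37. Of 26 hepatocyte markers only 6 were tested, their list summed to 573.5 to 991.4 in control and 666.5 to 792.5 with SKF-96365, and APOC3 was at 0 in all 6 libraries. Of 10 fibroblast markers 6 were tested, with sums of 1831 to 2956 in control and 1414 to 2832 with SKF-96365 and DPT at 0. Of 10 endothelial markers 3 were tested, summing to 79.1 to 259.9 and 81.2 to 154.6, and of 10 blood markers 1 was tested, summing to 38.9 to 62.9 and 54.6 to 62.0, with CD3E at 0. Of 12 neuroendocrine and glial markers 4 were tested, summing to 995 to 1646 and 1449 to 1620, with STMN2 and INSM1 at 0. The part of other cells in the results below was not tested, and in such bulk RNA fewer cells of a type and less RNA per cell cannot be told apart.

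The libraries did not sort by their labels. Among the 12381 genes with a mean of at least 50 normalized counts, control 3 differed at least 2-fold from SKF-96365 2 in 21 genes (0.170%) and from SKF-96365 3 in 37 genes (0.299%). Against the other controls it differed in 1049 genes (8.47%, control 1) and 1142 genes (9.22%, control 2). SKF-96365 1 in turn differed from control 1 in 147 genes (1.19%), and from SKF-96365 2 and 3 in 620 (5.01%) and 612 (4.94%). SKF-96365 1 and control 3 differed in 559 genes (4.51%), and SKF-96365 1 and control 2 in 523 (4.22%). Control 1 differed from control 2 in 292 genes (2.36%), from SKF-96365 2 in 1100 (8.88%) and from SKF-96365 3 in 1059 (8.55%). The pairs of control 2 with SKF-96365 2 and 3 had the most, 1210 (9.77%) and 1151 (9.30%). Only 20 genes (0.162%) separated SKF-96365 2 from SKF-96365 3, fewer than for any other pair of the 6 libraries. Control 3 thus resembled the SKF-96365 libraries 2 and 3, and SKF-96365 1 resembled control 1. The labels were used as given. Whether libraries were exchanged was not tested, and every difference between the groups below depends on the labels. The bars of genes differing 2-fold show that pairs within a group spanned nearly the range of pairs between groups. For part of the results below, values without 1 or both of these libraries are given. A result printed without such a value can depend on them too.

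**Figure D1:**
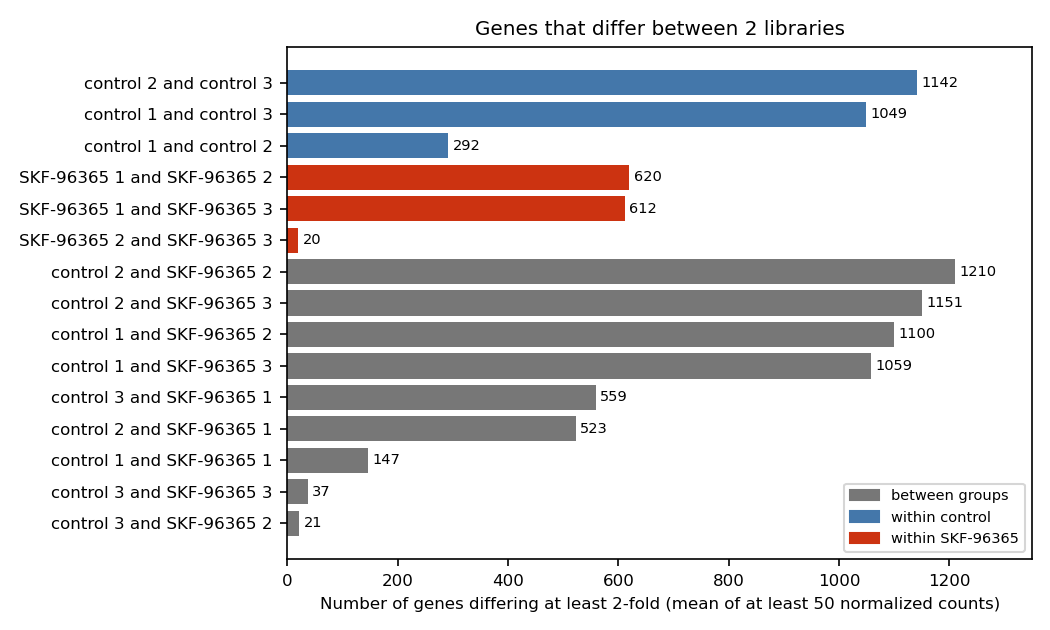
Bars give the number of genes, among 12381 with a mean of at least 50 normalized counts, that differ at least 2-fold between 2 libraries, for each of the 15 pairs. Within control the number ran from 292 to 1142 and within SKF-96365 from 20 to 620, while pairs between the groups ran from 21 to 1210.

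TRPV2 itself, the channel that SKF-96365 is named for, stood at 112, 51.7 and 191 normalized counts in control 1 to 3. It stood at 169, 209 and 188 in SKF-96365 1 to 3. Control 3 lay among the SKF-96365 libraries and control 2 was lowest, so the groups overlapped. Control averaged 118 ± 69.8 and the treated libraries 189 ± 20.04 (SD, n = 3), a log2 fold change of 0.85 (SE 0.38; limma adjusted p = 0.789). The log2 fold change was 0.36 without control 2 and 1.29 without control 3. The RNA level of a channel does not measure its block by a compound.

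Across the transcriptome no gene was called. In limma with Benjamini-Hochberg adjustment, 0 of 17492 genes (0%) had an adjusted p under 0.05, the lowest being 0.789. An unadjusted p under 0.05 was reached by 699 genes, 360 of them higher (2.06%) and 339 lower (1.94%) with SKF-96365. The log2 fold change was positive for 8652 genes (49.5%) and negative for 8840 (50.5%). It was 1 or more for 356 genes (2.04%) and -1 or less for 165 (0.943%). Without control 3 the same test called 173 genes, 111 higher and 62 lower. Without both control 3 and SKF-96365 1, a fit chosen after the data were seen because these libraries stood apart, it called 4823 genes, 2295 higher and 2528 lower. On the reads recovered from 8 libraries, without SKF-96365 3, edgeR called 0 genes and DESeq2 called 2, the processed pseudogenes SPCS2P4 (lower) and SNRPGP10 (higher).

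A second description asked which genes had all 3 SKF-96365 libraries on one side of all 3 controls. This held for 1085 genes (6.20%), of which 571 were higher (3.26%) and 514 lower (2.94%) with SKF-96365. With only 3 libraries a group, some genes separate in this way whatever the labels. That share was not estimated, so the count is not evidence of a response to SKF-96365. Of these, 407 (2.33%) also lay beyond all 2-APB libraries, 229 higher (1.31%) and 178 lower (1.02%). The gaps were narrow: the nearest libraries of the groups were at least 1.5-fold apart for 11 higher genes (0.0629%) and 15 lower genes (0.0858%). At least 2-fold apart were 0 higher genes (0%) and 3 lower genes (0.0172%). Control 3 was the control library nearest to the SKF-96365 group in 324 of the 571 higher genes (56.7%) and 289 of the 514 lower genes (56.2%). SKF-96365 1 was the one nearest to control in 243 (42.6%) and 216 (42.0%). The share was 5.90% of 13060 protein-coding genes, 7.51% of 1238 pseudogenes and 6.81% of 2687 other RNAs. Without control 3 the count was 6782, and without SKF-96365 1 it was 5112.

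**Figure D2:**
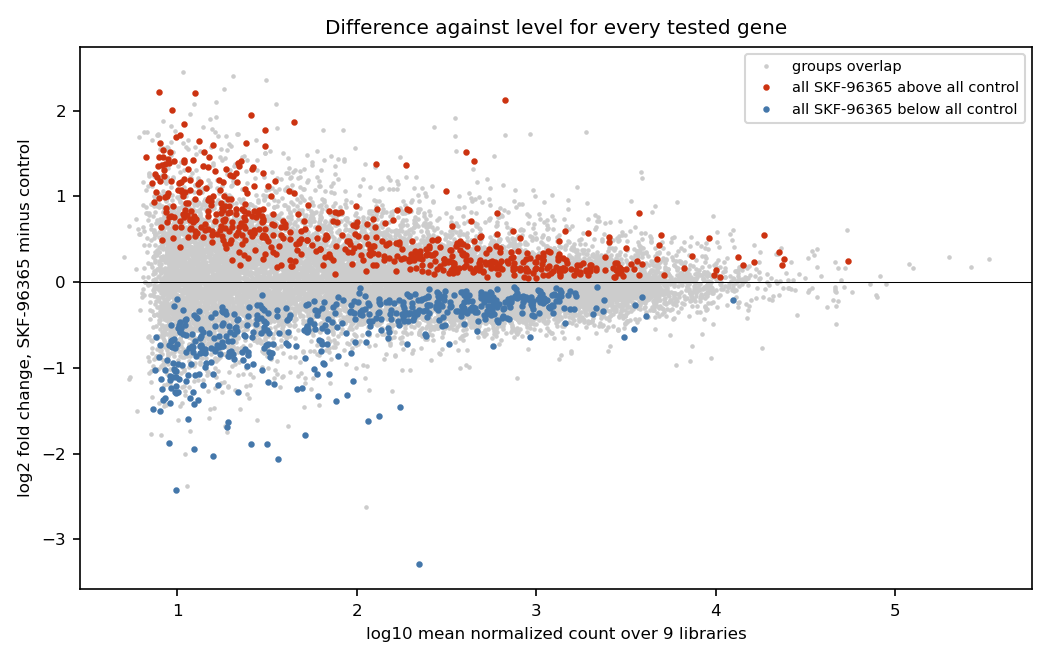
Each point is 1 of 17492 tested genes, with its log10 mean normalized count over 9 libraries on the horizontal axis and its log2 fold change (SKF-96365 minus control) on the vertical axis. Red and blue points are the 571 and 514 genes whose groups do not overlap, and they lie on both sides of 0 at every level.

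The 15 genes of at least 50 normalized counts with the widest gap in the higher direction had log2 fold changes of 0.35 to 0.83, and 5 of them lay beyond all 2-APB libraries too. They were chosen for not overlapping, so that property is no result about them, and the adjusted p was 0.789 for each in limma. ZBTB46, a zinc finger transcription factor known from dendritic cells, had the widest gap. It stood at 91.5, 87.2 and 101 normalized counts in control 1 to 3 and at 163, 146 and 129.9 in SKF-96365 1 to 3. Its nearest libraries were 1.28-fold apart, and its log2 fold change was 0.64 (SE 0.17). The 2-APB libraries, at 151, 143 and 122, were also above every control.

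Calcium signalling was represented by NFATC1, the calcineurin-dependent transcription factor. NFATC1 had 139, 103 and 138 normalized counts in control and 170.3, 186 and 159.7 with SKF-96365. Control 2 was the low library, and the 2-APB libraries at 130.4, 146 and 149.9 lay below all SKF-96365 libraries. The log2 fold change was 0.45 (SE 0.17). GUCA1B, a calcium-binding activator of photoreceptor guanylate cyclase, had 56.8, 29.4 and 74.1 in control and 95.2, 84.3 and 90.3 with SKF-96365. Its log2 fold change was 0.83 (SE 0.35), and 0.46 without control 2, its lowest library.

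LRRC8B, a subunit of the volume-regulated anion channel, stood at 321, 259.7 and 356 normalized counts in control and 432, 399.9 and 431 with SKF-96365. All 3 SKF-96365 libraries also lay above the 2-APB values of 372, 349.5 and 361, and the log2 fold change was 0.44 (SE 0.14). VLDLR, a lipoprotein receptor, stood at 232, 187 and 283 in control and 332, 324 and 325 with SKF-96365. The SKF-96365 libraries of VLDLR were close to each other, control 3 was the highest control, and the log2 fold change was 0.50 (SE 0.17). NCKAP1L, a WAVE complex subunit of blood cells that acts on actin, had 127, 121 and 139.8 in control and 162, 182 and 189 with SKF-96365. Its groups were 1.16-fold apart at the nearest, with a log2 fold change of 0.46 (SE 0.15).

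TRAF1, an adaptor of tumour necrosis factor receptors, had 70.5, 92.3 and 84.5 normalized counts in control and 126, 113 and 127 with SKF-96365. Its 2-APB libraries ran from 60.3 to 147, wider than both groups together, and the log2 fold change was 0.57 (SE 0.32). CBY1, an antagonist of beta-catenin that also acts at cilia, had 67.3, 71.0 and 91.8 in control and 107, 110.0 and 116 with SKF-96365. Control 3 was again the nearest control, and the log2 fold change was 0.54 (SE 0.19). NIPSNAP2, a mitochondrial protein, had 643, 627 and 723 in control and 895, 846 and 814 with SKF-96365, a log2 fold change of 0.36 (SE 0.11). Its 2-APB libraries, at 856, 880.3 and 838, lay among those with SKF-96365.

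The other 6 of the 15 are given by their ranges. OSCP1 had 76.2 to 89.3 normalized counts in control and 107 to 110.1 with SKF-96365, and CPLX1, a complexin that binds SNARE proteins, 35.5 to 47.4 and 54.2 to 60.5. POLR3GL, an RNA polymerase III subunit, had 76.8 to 89.7 and 102 to 106, and the orphan receptor GPR160 91.3 to 109.6 and 124 to 137. ZNG1C, of a family of zinc chaperones with near-identical copies, had 58.9 to 79.1 and 93.5 to 113. The pseudogene PPP4R2P1 had 40.0 to 52.7 and 59.4 to 74.4. Reads of these last 2 genes could be split among copies, so their values are uncertain.

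In the lower direction the 15 genes with the widest gap had log2 fold changes of -1.79 to -0.35. Of these, 12 lay below all 2-APB libraries too, as did 178 of all 514 lower genes without overlap. The 15 were chosen for a wide gap below control, so neither property is a result about them. The limma adjusted p was at least 0.789 for each. SPCS2P4, a processed pseudogene of the signal peptidase subunit SPCS2, had the widest gap of either direction. It stood at 259, 170.4 and 152 normalized counts in control 1 to 3 and at 67.3, 62.7 and 52.6 in SKF-96365 1 to 3. The nearest libraries of the groups were 2.25-fold apart, and the 2-APB libraries at 85.5, 116 and 76.9 lay between the groups. The means were 194 ± 57.0 and 60.8 ± 7.52 (SD, n = 3), with a log2 fold change of -1.62 (SE 0.25; limma adjusted p = 0.789). In limma without control 3 it was called (-1.78, adjusted p = 0.0403), as it was by DESeq2 on the recovered reads of 8 libraries (-1.57, adjusted p = 0.0296). Both fits reused libraries by which SPCS2P4 was chosen, so these calls are no independent support. The parent gene SPCS2 had 1029, 869 and 775 in control and 1102, 773 and 926 with SKF-96365. Its groups overlapped, with a log2 fold change of 0.06 (SE 0.16). Reads from a processed pseudogene and its parent can be exchanged in counting, so the value of SPCS2P4 is uncertain.

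FOXA1, a pioneer transcription factor of endodermal tissues, was the highest ranked transcription factor on the lower side. FOXA1 had 75.8, 66.9 and 103 normalized counts in control and 45.4, 29.8 and 39.7 with SKF-96365. Its 2-APB libraries, at 63.6, 58.4 and 60.1, lay above all with SKF-96365, and the log2 fold change was -1.07 (SE 0.24). FOXA1 is 1 of the 6 tested hepatocyte markers, of which 3 had a positive and 3 a negative log2 fold change (median 0.01). Of these 6 markers, 1 did not overlap on the higher side and 1, FOXA1, on the lower side. Together they were 33.3% of the 6, beside 6.20% of all tested genes. TERT, the catalytic subunit of telomerase, had 96.8, 84.2 and 238 in control and 71.6, 46.3 and 36.7 with SKF-96365. Control 3 stood far above the others, and the log2 fold change of -1.31 (SE 0.42) was -0.85 without it.

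The 15 also held the kinase genes IKBKE, MAP2K6 and MKNK1. IKBKE, a non-canonical I-kappa-B kinase, had 195, 252 and 258 normalized counts in control and 161, 142 and 122 with SKF-96365. It was lower than every 2-APB library as well (179, 202 and 197), with a log2 fold change of -0.72 (SE 0.17). MAP2K6, a kinase that activates p38, had 77.9, 78.1 and 63.7 in control and 51.5, 27.8 and 27.8 with SKF-96365, a log2 fold change of -1.07 (SE 0.31). MKNK1, which phosphorylates the translation factor eIF4E, had 704, 858 and 746 in control and 568, 590.0 and 565 with SKF-96365. The SKF-96365 libraries of MKNK1 were close to each other, and the log2 fold change was -0.42 (SE 0.13).

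In 3 others SKF-96365 3 was far below the other SKF-96365 libraries. MUC16, a membrane mucin, had 56.8, 60.9 and 80.4 normalized counts in control and 37.6, 36.0 and 3.97 with SKF-96365. GDA, guanine deaminase, had 97.9, 82.2 and 98.1 in control and 55.0, 50.4 and 14.9 with SKF-96365. ASS1, argininosuccinate synthase of the urea cycle, had 183, 153 and 171 in control and 111, 94.6 and 16.9 with SKF-96365. In each gene SKF-96365 1 and 2 were close and SKF-96365 3 was far lower. Their log2 fold changes were -1.79 (SE 0.66), -1.39 (SE 0.43) and -1.56 (SE 0.56). Without SKF-96365 3 they were -0.81, -0.80 and -0.71.

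The other 6 of the lower genes included a pair of zinc finger genes, ZNF552 with 119 to 159.9 normalized counts in control and 73.0 to 95.2 with SKF-96365, and ZNF671 with 218 to 222 and 166 to 185. CIAO3, which acts in cytosolic iron-sulfur cluster assembly, had 334 to 382 in control and 269.8 to 287 with SKF-96365. SAC3D1 had 197 to 236 and 154 to 159, and WDR83 had 68.9 to 83.2 and 35.7 to 54.2. GUSBP11, a pseudogene with related copies, had 139 to 145 and 88.2 to 115, and its value is uncertain for that reason.

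**Figure D3:**
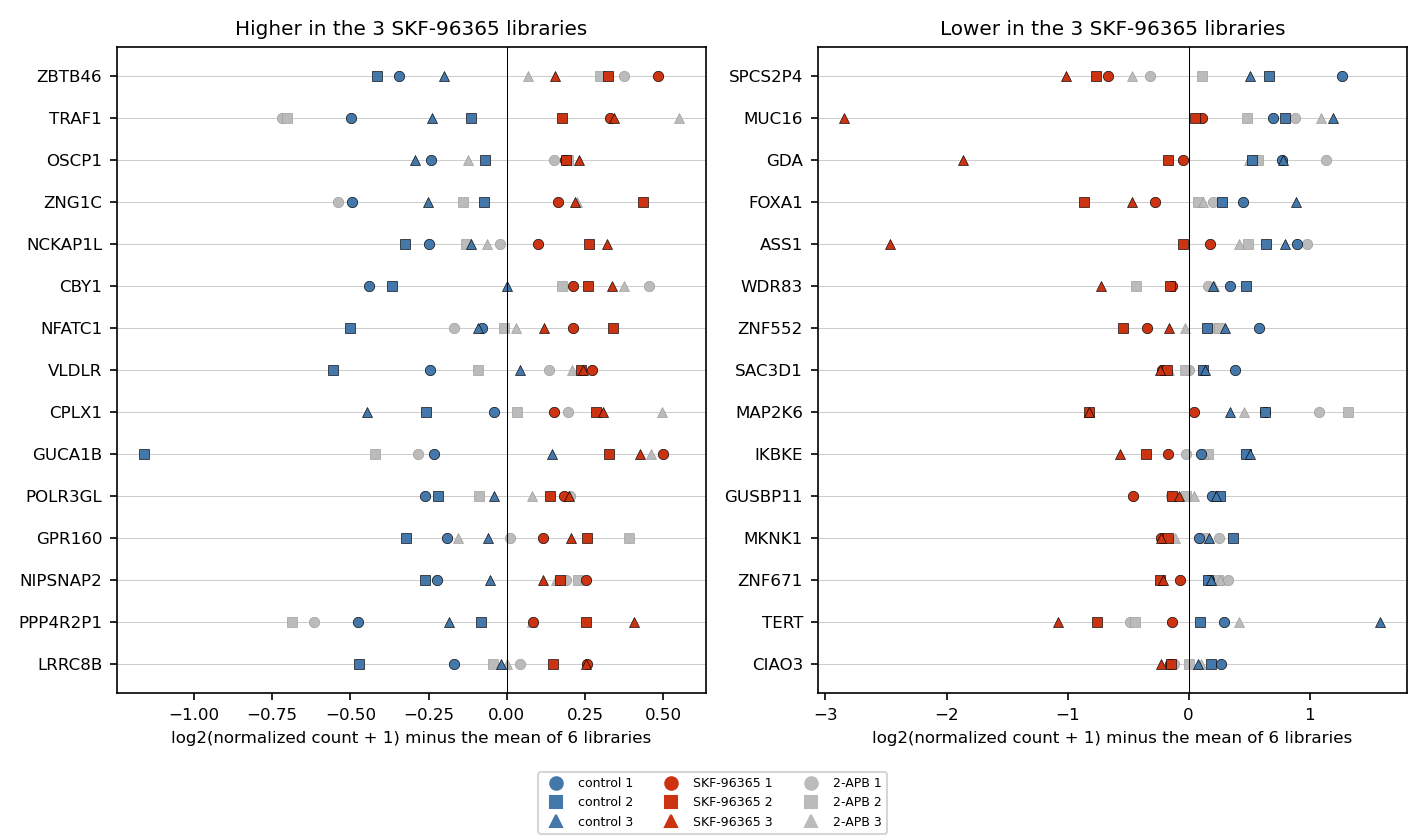
Each row is a gene, and each symbol a library, placed by log2 of the normalized count plus 1 minus the mean of the 6 control and SKF-96365 libraries. All red symbols lie on one side of all blue ones by the rule that chose the genes, control 3 is often the blue triangle nearest to the red symbols, and SKF-96365 3 is far below the rest for MUC16, GDA and ASS1.

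The letters before the gene start were read from RefSeq promoters (GRCh38.p14), which had entries for 22 of these 30 genes (30 entries of 300 bases, 250 before the start and 50 after). Motifs were searched on both strands, overlaps allowed. The letters CCAAT, bound by NF-Y, were present in 9 entries, beside 34.61% of all 35116 promoters of that length. The letters TGANTCA, a loose form of the AP-1 motif, were present in 3 entries beside 7.71%. They read TGAGTCA in LRRC8B, TGATTCA in CBY1 and TGAATCA in MUC16. The cyclic AMP response element TGACGTCA was present in 1 entry beside 1.85%. The TATA box, searched as TATAAA, was present in 1 entry beside 11.53%, and a kappa-B site of NF-kB in 0 beside 0.19%. The 4 stretches below show the 250 bases before the start for ZBTB46 and FOXA1, which lead the transcription factors of each direction, and for CBY1 and LRRC8B, which hold TGANTCA. They are written 5′ to 3′ on the strand of the gene, with matched letters in capitals on either strand (CCAAT reads as ATTGG on the opposite strand).
ZBTB46, chr20:63831265-63831514, minus strand: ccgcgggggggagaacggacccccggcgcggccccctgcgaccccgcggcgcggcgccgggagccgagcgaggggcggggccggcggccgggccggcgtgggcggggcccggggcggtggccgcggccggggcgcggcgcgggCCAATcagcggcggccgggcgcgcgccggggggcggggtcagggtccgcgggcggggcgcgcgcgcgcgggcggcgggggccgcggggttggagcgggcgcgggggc
CBY1, chr22:38656388-38656637, plus strand: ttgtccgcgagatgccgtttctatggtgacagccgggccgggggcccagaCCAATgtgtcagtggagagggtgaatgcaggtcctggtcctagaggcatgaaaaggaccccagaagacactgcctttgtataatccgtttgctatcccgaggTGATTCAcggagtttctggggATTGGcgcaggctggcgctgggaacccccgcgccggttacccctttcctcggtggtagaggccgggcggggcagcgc
LRRC8B, chr1:89524579-89524828, plus strand: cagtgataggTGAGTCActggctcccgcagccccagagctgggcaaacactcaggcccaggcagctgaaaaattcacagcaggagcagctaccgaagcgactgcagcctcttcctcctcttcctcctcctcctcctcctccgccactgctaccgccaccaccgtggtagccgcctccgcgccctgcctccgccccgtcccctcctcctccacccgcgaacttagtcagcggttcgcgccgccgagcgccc
FOXA1, chr14:37595250-37595499, minus strand: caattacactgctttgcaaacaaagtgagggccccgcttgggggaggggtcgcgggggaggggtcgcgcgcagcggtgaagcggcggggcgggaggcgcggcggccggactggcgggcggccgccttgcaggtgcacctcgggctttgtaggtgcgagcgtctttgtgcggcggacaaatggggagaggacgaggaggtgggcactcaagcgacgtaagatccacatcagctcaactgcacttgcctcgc
A match is a run of letters, not a bound site, and the FOXA1 stretch held none of the 5 motifs.

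The genes with the largest differences were mostly genes in which 1 or 2 libraries stood apart. Of the 10 with the highest log2 fold changes (mean of at least 50), 9 overlapped between the groups, and of the 10 with the lowest, 3 did. IL1B, the inflammatory cytokine interleukin 1 beta, had the highest log2 fold change at 2.12 (SE 0.96; limma adjusted p = 0.789). It stood at 538, 34.5 and 841 normalized counts in control and 1532, 893 and 971 with SKF-96365. Control 2 was far below the other controls, and without it the log2 fold change was 0.71. CXCL8, the chemokine interleukin 8, had 686, 113 and 998 in control and 2828, 995 and 1012 with SKF-96365, and its log2 fold change of 1.73 (SE 0.97) was 0.78 without control 2.

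In other genes control 3 lay with SKF-96365 2 and 3. GDF15, a stress-induced cytokine of the TGF-beta family, had 404, 298 and 4830 normalized counts in control and 1138, 4463 and 4444 with SKF-96365. IL24, a cytokine of the interleukin 10 family, had 198, 100.4 and 1677 in control and 488, 1530 and 1603 with SKF-96365. For both, control 3 was the highest of the 6 libraries and SKF-96365 1 lay between the high and low libraries. Their log2 fold changes were 1.76 (SE 0.90) and 1.72 (SE 0.85), and in limma without control 3 both were called (3.02 and 2.90, adjusted p = 0.0403 for each). Control 2 was the lowest of the 6 libraries for both, and leaving it out gave 1.01 and 0.88. H2BC21 and H2BC8, histone H2B genes whose near-identical family makes counts uncertain, also had control 3 beside SKF-96365 2 and 3 and SKF-96365 1 between these and the low controls. H2BC21 had 91.5, 69.0 and 744 in control and 439, 756 and 779 with SKF-96365, and H2BC8 115, 70.0 and 766 and 479.6, 640.4 and 705. SLC16A14, a transporter of the monocarboxylate family, had 30.5, 6.09 and 115 in control and 74.2, 114 and 118 with SKF-96365. The pseudogene CEACAMP10 had 17.9, 10.1 and 173, and 31.4, 209 and 214. In limma without control 3, H2BC21 (2.99, adjusted p = 0.0159), H2BC8 (2.73, adjusted p = 0.0109) and SLC16A14 (2.76, adjusted p = 0.0487) were called as well. Control 2 was the lowest of the 6 libraries in these 4 genes. The log2 fold change without it was 1.28 for H2BC21, 1.01 for H2BC8, 0.99 for CEACAMP10 and 0.74 for SLC16A14, which had 1.77 with all 6 libraries.

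Among the largest negative differences, ALK and RET, both receptor tyrosine kinases, were high in control 3 alone. ALK had 8.42, 14.2 and 1928 normalized counts in control and 3.49, 7.20 and 6.94 with SKF-96365. RET had 8.42, 15.2 and 938 in control and 5.24, 11.3 and 6.94 with SKF-96365. Their log2 fold changes of -3.29 (SE 1.60) and -2.63 (SE 1.36) were -0.85 and -0.54 without control 3. KLHDC7A had 229, 401 and 92.9 in control and 92.6, 63.7 and 68.4 with SKF-96365, so control 3 and SKF-96365 1 nearly touched. PTGS1, a cyclooxygenase of prostaglandin synthesis, had 90.5, 166 and 27.1 in control and 46.3, 24.7 and 16.9 with SKF-96365. SGPP2, a sphingosine phosphate phosphatase, had 99.97, 69.0 and 10.4 and 77.7, 6.17 and 5.95. In PTGS1 and SGPP2 control 3 was low with SKF-96365 2 and 3, and the groups overlapped. KLHDC7A (-2.02, adjusted p = 0.0421) and PTGS1 (-2.15, adjusted p = 0.0453) were called by limma without control 3. Control 2 was the highest of the 6 libraries for both, and leaving it out gave -0.97 and -0.86.

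Genes that set 1 library at least 3-fold beyond the nearest of the other 8 were counted among those with a mean of at least 50. Control 2 was alone in being low in 46 genes and high in 3, which were DCDC2, BCAT1 and FLG. SLC16A14 was among the 46. OR51B5, an olfactory receptor gene, was the most extreme low one, with 266, 8.11 and 236 normalized counts in control and 266, 286 and 322 with SKF-96365. DCHS1, a protocadherin, had 88.4, 5.07 and 124 in control and 97.8, 129.5 and 135 with SKF-96365. The log2 fold change of OR51B5 was 1.81 with control 2 and 0.21 without it, and that of DCHS1 was 1.56 and 0.19. BCAT1, a branched-chain aminotransferase, had 45.2, 288 and 44.9 in control and 32.3, 39.1 and 27.8 with SKF-96365, and its log2 fold change was -1.33 with control 2 and -0.45 without it. Control 3 was alone in being high in 3 genes, ALK, RET and the pseudogene MST1P2. SKF-96365 3 was alone in being low in 4, MUC16, ASS1, GDA and the folate receptor gene FOLR1, which had 184, 139 and 30.8 with SKF-96365 and 176 to 218 in control. Control 1, SKF-96365 1 and SKF-96365 2 had 0 such genes.

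**Figure D4:**
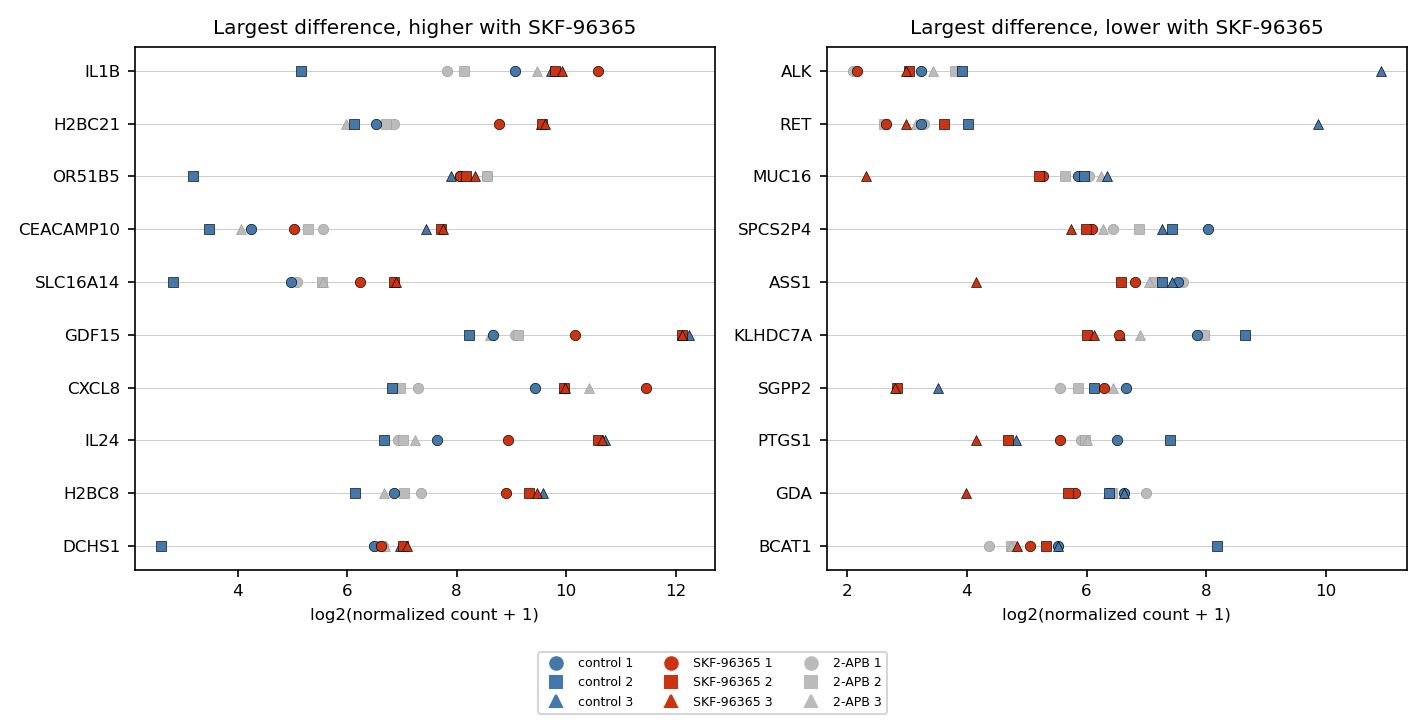
Rows are the 10 genes with the largest positive (left) and negative (right) log2 fold change among genes with a mean of at least 50, and each symbol is a library on the log2(normalized count + 1) axis. Control 2 is far left for IL1B, OR51B5 and DCHS1, control 3 is far right for ALK and RET, and SKF-96365 3 is far left for MUC16 and ASS1.

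Gene lists were read by their counts and medians, and 50 lists with 1166 symbols were used, 47 of them with at least 5 tested members. Over all tested genes the median log2 fold change was -0.004 and 6.20% of genes did not overlap between the groups. List medians moved with single libraries. For part of the lists, values with 1 library left out are given, and a median printed without them can move too. Of 11 tested TRP channels 8 had a positive and 3 a negative log2 fold change, with a median of 0.31. MCOLN2, a lysosomal channel of the family, had 302, 283 and 419.5 normalized counts in control and 423, 453 and 472 with SKF-96365. Control 3 all but reached SKF-96365 1, and the log2 fold change was 0.44 (SE 0.16). TRPV1, the heat- and capsaicin-gated channel, had 133, 139 and 139.8 in control and 118, 115 and 127 with SKF-96365, below every 2-APB library (141 to 143). Its log2 fold change was -0.19 (SE 0.15). TRPM2, a channel opened by ADP-ribose, had 45.9 to 54.8 in control and 19.8 to 36.0 with SKF-96365. TRPM7, the member with the highest mean, had 2346, 2358 and 2985 in control and 2559, 3282 and 3305 with SKF-96365, and its groups overlapped. No TRP gene was called, and the median of the list ran from 0.17 without control 1 to 0.50 without SKF-96365 1. It was 0.19 on leaving out control 2, SKF-96365 2 or SKF-96365 3, and 0.19 in DESeq2. Leaving out control 3 gave 0.50, and leaving out SKF-96365 1 as well gave 0.73.

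The genes of store-operated entry had a median near that of all genes. Of 16 tested genes of store-operated entry and IP3 receptors, 7 had a positive and 9 a negative log2 fold change, with a median of -0.04. That median ran from -0.06 without control 3 to 0.05 without SKF-96365 1. STIM2, a calcium sensor of the endoplasmic reticulum, had 302, 277 and 219 normalized counts in control and 216, 209 and 201 with SKF-96365. The gap of 1.02-fold lay between control 3 and SKF-96365 1, and the log2 fold change was -0.34 (SE 0.16). STIMATE, a regulator of STIM1, was lower too, with 29.2 to 35.8 in control and 21.8 to 27.1 with SKF-96365. ITPR3, the IP3 receptor with the highest mean, had 5353, 6002 and 6805 in control and 6443, 7183 and 7123 with SKF-96365, and its groups overlapped.

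Of 20 tested genes of calmodulin, calcineurin and NFAT, 9 were positive and 11 negative (median -0.03). NFATC1, RCAN1 and PPP3CA had all SKF-96365 libraries above control, and CAMK1 had them below. RCAN1, a calcineurin inhibitor and NFAT target, had 384, 313 and 373 normalized counts in control and 477, 414 and 447 with SKF-96365. Its 2-APB libraries reached 384 at most, and the log2 fold change was 0.33 (SE 0.13). CAMK1, a calmodulin-dependent kinase, had 56.8 to 75.8 in control and 49.8 to 55.6 with SKF-96365, and PPP3CA, the catalytic subunit of calcineurin, 928 to 975 and 979 to 992. Among 19 calcium pumps, exchangers and mitochondrial uptake genes, 9 were positive and 10 negative (median -0.01). In that list 2 regulators of the mitochondrial uniporter (10.5%) did not overlap, beside 6.20% of all tested genes. SMDT1 had 85.2 to 101 in control and 57.5 to 80.4 with SKF-96365, and MICU2 had 427 to 468 and 399 to 408. ATP2A2, the calcium pump of the endoplasmic reticulum with the highest mean of that list, had 6563 to 8672 and 7042 to 8050. Voltage-gated calcium channel subunits had 7 positive and 2 negative members of 9 and no member without overlap. Their median of 0.26 ran from 0.17 without SKF-96365 3 to 0.53 without SKF-96365 1.

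Cytokine, chemokine and NF-kB genes mostly had positive differences. Of 26 tested, 20 were positive and 6 negative, and the median was 0.41. The groups of 5 members (19.2%) did not overlap, beside 6.20% of all tested genes. All 5 were higher with SKF-96365: IL1A, IL1B, IL6, CXCL2 and TRAF1. IL6, interleukin 6, had 635, 604 and 656 normalized counts in control and 930.3, 767 and 736 with SKF-96365. The 2-APB libraries of IL6 were lower, at 355, 352 and 620.2, and the log2 fold change was 0.35 (SE 0.21). IL1A, interleukin 1 alpha, had 117, 47.7 and 246 in control and 299.6, 263 and 307 with SKF-96365, a log2 fold change of 1.37 (SE 0.47). Control 2 was lowest for IL1A and CXCL2, and without it their log2 fold changes were 0.77 and 0.39. IL1A was called by limma without control 3 (1.94, adjusted p = 0.0441). The list median was 0.16 without control 2 and 0.55 without control 3. The list score, which is the mean over members of log2(normalized count + 1) minus the 6-library mean of each gene, was -0.20, -0.82 and 0.22 in control 1 to 3. It was 0.41, 0.20 and 0.19 in SKF-96365 1 to 3, so control 3 lay within the SKF-96365 range.

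Immediate early transcription factors, which are induced within minutes by growth signals and calcium, had 21 positive and 3 negative members of 24 (median 0.35). The median was 0.19 without control 2 and 0.52 without control 3. NR4A1, an orphan nuclear receptor of this class, had 89.4, 47.7 and 113 normalized counts in control and 135, 124 and 126 with SKF-96365. Its log2 fold change was 0.71 (SE 0.32), and 0.35 without control 2. Of 19 MAP kinase phosphatase and Sprouty feedback genes, 13 were positive and 6 negative (median 0.36). That median was 0.18 without control 2, 0.19 without SKF-96365 1, 0.21 without control 1 and 0.23 over genes with a mean of at least 50. ERRFI1, a feedback inhibitor of the EGF receptor, had 2653, 2172 and 4474 in control and 5858, 4750 and 4919 with SKF-96365. Control 3 was far above the other controls and just below SKF-96365 2, and the log2 fold change was 0.80 (SE 0.31).

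Growth genes mostly had negative differences. All 38 tested DNA replication genes had a negative log2 fold change, with a median of -0.42. Of the 38, 0 (0%) had groups without overlap, beside 6.20% of all tested genes. Their score was 0.60, 0.40 and -0.39 in control 1 to 3 and 0.18, -0.42 and -0.38 in SKF-96365 1 to 3. Control 3 was thus level with SKF-96365 2 and 3, and SKF-96365 1 lay nearer to the other controls. RRM2, the small subunit of ribonucleotide reductase, had 12321, 10359 and 4954 normalized counts in control and 10719, 4672 and 5216 with SKF-96365. The list median was -0.17 without control 1, -0.30 without control 2, -0.70 without control 3 and -0.88 without both control 3 and SKF-96365 1.

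E2F factors and G1/S regulators had 3 positive and 19 negative members of 22 (median -0.30), and mitosis genes 3 and 31 of 34 (median -0.18), with 0 members without overlap in either. The E2F median was -0.12 without control 1 and -0.55 without control 3, and the mitosis median -0.06 without control 2 and -0.38 without control 3. CCND1, cyclin D1, the highest of the G1/S list, had 12841, 11090 and 5644 normalized counts in control and 12856, 5641 and 5750 with SKF-96365. Control 3 stood level with SKF-96365 2, and control 1 with SKF-96365 1. Of 15 tubulins 13 were negative, and their median of -0.59 was -0.39 without SKF-96365 3 and -0.92 without control 3. TUBB, a beta-tubulin with related copies, had 26155, 25772 and 8793 in control and 15005, 8681 and 9114 with SKF-96365. Its log2 fold change of -0.77 (SE 0.38) was -1.29 in limma without control 3, where it was called (adjusted p = 0.0403), and -0.51 without control 1. TUBA3D and TUBA4A were the 2 tubulins without overlap, both with a mean under 50. TUBA4A had 17.7 to 40.0 in control and 3.97 to 13.1 with SKF-96365. Ribosome biogenesis (26 of 28 negative, median -0.21) and the proteasome (29 of 30, median -0.19) had the same sign, and neither list had a member without overlap. Their medians moved to -0.07 and -0.10 when control 1 was left out and to -0.43 and -0.37 when control 3 was.

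Stress and metabolic lists held single members whose groups did not overlap. Of 20 hypoxia-inducible genes 14 were positive and 6 negative (median 0.27), and KDM3A, NDRG1 and P4HA1 were the 3 without overlap. KDM3A, a histone demethylase, had 913, 882 and 960.1 normalized counts in control and 1240, 1038 and 1117 with SKF-96365, above all 2-APB libraries (976 to 1023), with a log2 fold change of 0.30 (SE 0.11). NDRG1 had 1165, 1349 and 2094 in control and 2101, 2214 and 2353 with SKF-96365, and P4HA1, a collagen prolyl hydroxylase, 639.8 to 833 and 835 to 932. For NDRG1 and P4HA1 control 3 lay just below the lowest SKF-96365 library. HK2, hexokinase 2, led the glycolysis list of 21 (median -0.05) with 2368, 1749 and 2440 in control and 4141, 2721 and 2703 with SKF-96365. SKF-96365 1 was highest there, and the log2 fold change of 0.53 (SE 0.28) was 0.33 without it.

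Of 26 genes of ATF4 targets and amino acid supply, 12 were positive and 14 negative (median -0.05). Of these 26, 4 (15.4%) did not overlap, beside 6.20% of all tested genes. PSAT1, a serine synthesis enzyme, had 50.5, 49.7 and 58.4 normalized counts in control and 26.2, 18.5 and 2.98 with SKF-96365, again lowest in SKF-96365 3. Its log2 fold change of -2.07 (SE 0.61) was -1.22 without that library. SLC7A5, the large neutral amino acid transporter, had 12275, 14757 and 12257 in control and 10569, 11991 and 11467 with SKF-96365. Its log2 fold change was -0.20 (SE 0.12), and -0.11 without control 2. HSP90B1, an endoplasmic reticulum chaperone, had 20049 to 22318 in control and 23583 to 25491 with SKF-96365. KEAP1, the adaptor that targets NRF2 for degradation, had 565, 652 and 483 in control and 478, 332 and 342 with SKF-96365, a log2 fold change of -0.57 (SE 0.17), in a list of 22 antioxidant genes with a median of -0.03. MAP1LC3B, an autophagosome protein, had 1055, 946 and 1295 in control and 1357, 1375 and 1451 with SKF-96365 (log2 fold change 0.35, SE 0.13), the 1 gene without overlap of 31 of lysosome and autophagy.

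Adhesion and matrix genes were mostly positive. Of 29 matrix and mesenchymal genes 25 were positive and 4 negative (median 0.26), and of 14 integrins 11 and 3 (median 0.25). The matrix median was 0.16 without SKF-96365 2, 0.17 without control 2 and 0.56 without SKF-96365 1. The integrin median was 0.09 without control 1, 0.11 without SKF-96365 2 or 3 and 0.45 without SKF-96365 1. ITGA2, the collagen-binding alpha-2 integrin, had 457, 303 and 715 normalized counts in control and 796, 795 and 837 with SKF-96365. The SKF-96365 libraries were close to each other and the controls were not, and the log2 fold change was 0.80 (SE 0.25). In limma without control 3 it was 1.12 with an adjusted p of 0.0403, and without control 2, the lowest of the 6, it was 0.50. ITGA6, the laminin-binding alpha-6 integrin, had 19666, 10220 and 18035 in control and 25099, 20980 and 21733 with SKF-96365, with control 2 lowest (log2 fold change 0.55, and 0.26 without control 2). ZEB1, a repressor of epithelial genes, had 956 to 1094 in control and 1203 to 1277 with SKF-96365, a log2 fold change of 0.26 (SE 0.11). Of 22 Wnt genes, TCF7L2, ZNRF3 and FZD2 (13.6%) did not overlap, beside 6.20% of all tested genes, and all were lower with SKF-96365. TCF7L2, a partner of beta-catenin on DNA, had 417, 447 and 391 in control and 323, 339 and 352 with SKF-96365, a log2 fold change of -0.31 (SE 0.12).

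Of 24 BCL2 family and caspase genes, 7 were positive and 17 negative, and 2 (8.3%) did not overlap, beside 6.20% of all tested genes. Their median of -0.10 was -0.05 without control 2 and -0.17 without control 3. BCL2, an inhibitor of apoptosis, had 105 to 127 normalized counts in control and 79.2 to 99.6 with SKF-96365, and CASP6, an executioner caspase, 178 to 230.3 and 141 to 170.3. Of 26 p53 targets 16 were positive and 10 negative, with a median of 0.12 (0.07 without control 1 and 0.24 without control 3). MDM2 and TNFRSF10B (7.7% of that list) did not overlap. MDM2, the ubiquitin ligase of p53, had 4920 to 5178 in control and 5255 to 5601 with SKF-96365, a log2 fold change of 0.09 (SE 0.09).

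Read over whole lists, the groups did not separate. The score of each of the 47 lists overlapped between the 3 control and 3 SKF-96365 libraries, so 0 lists had non-overlapping groups. In 44 of the 47 lists control 3 lay nearer to the mean of SKF-96365 2 and 3 than to that of control 1 and 2. In 42 it lay within 0.1 log2 units of the range of SKF-96365 2 and 3. SKF-96365 1 lay nearer to control 1 than to the mean of SKF-96365 2 and 3 in 34 lists, and nearer to the latter in 13, with the cytokine and immediate early lists among these. The median log2 fold change was positive in 24 of 47, and 20 had no member without overlap.

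**Figure D5:**
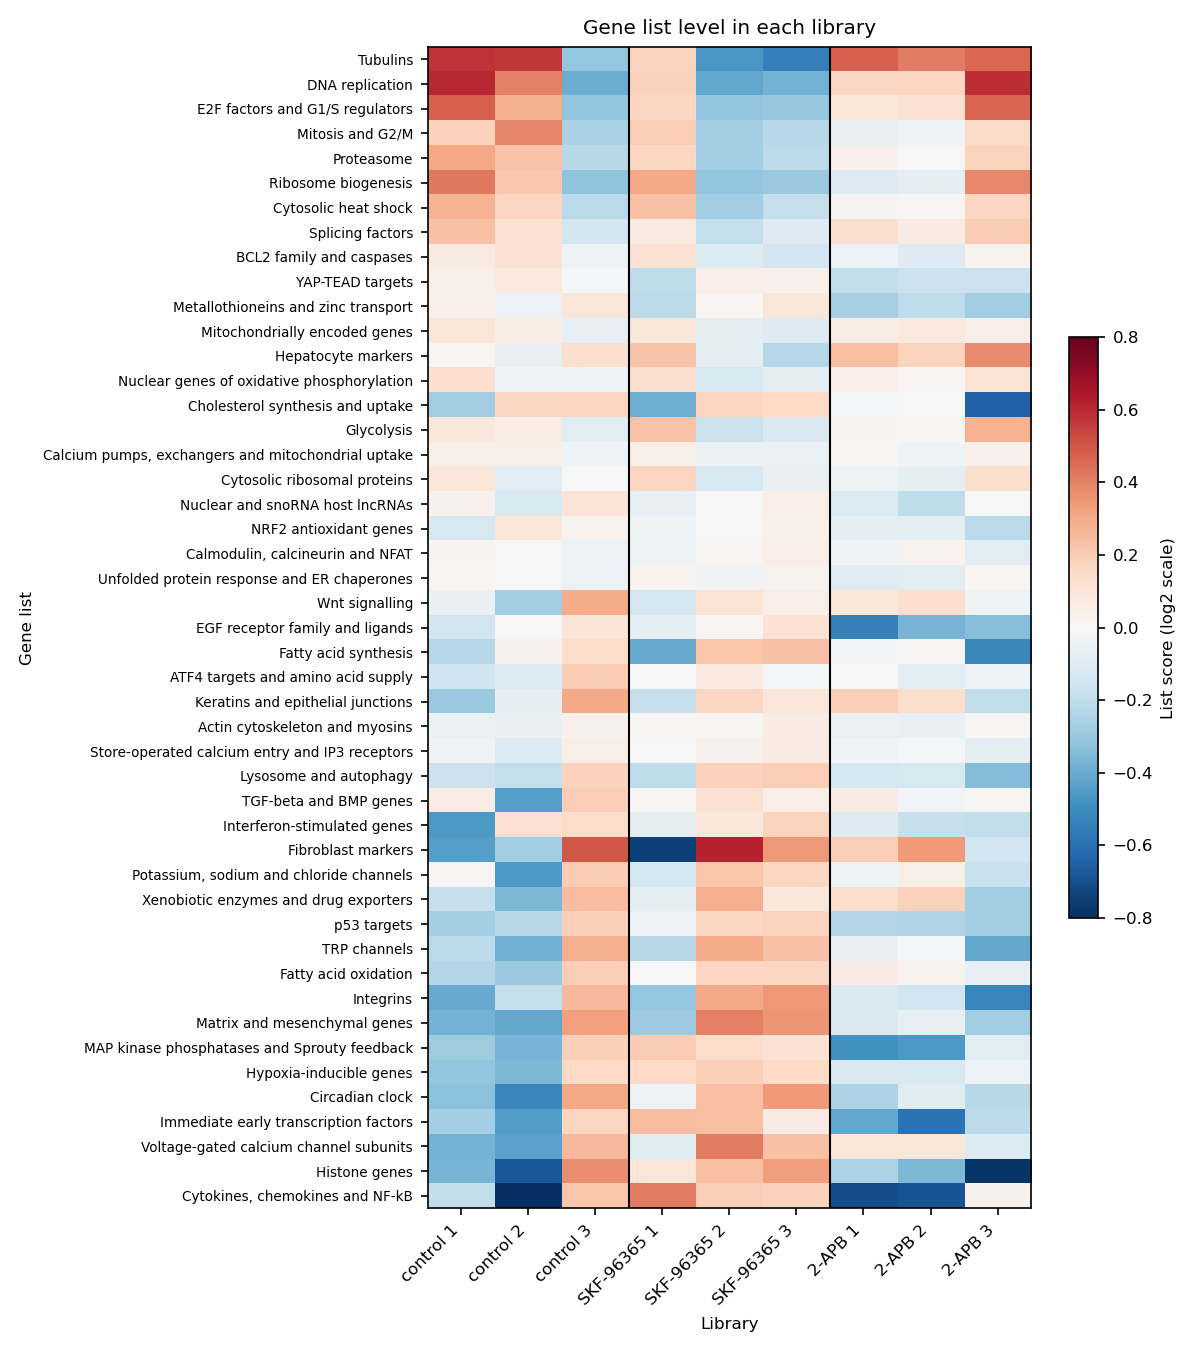
Colours give the list score (mean over tested members of log2(normalized count + 1) minus the gene mean of the 6 control and SKF-96365 libraries) for 47 lists in each library, ordered by the difference SKF-96365 minus control. Control 3 has the colours of SKF-96365 2 and 3 in most rows, as for DNA replication (-0.39 beside -0.42 and -0.38). SKF-96365 1 is nearer to control 1 in 34 rows and nearer to SKF-96365 2 and 3 in 13.

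The intervals show which sizes of difference these libraries allow. The 95% confidence interval of the log2 fold change lay within -1 to 1 for 11701 of 17492 genes (66.9%), and so left room for a difference of 2-fold or more in the others. This share was 20.3% of 5111 genes with a mean under 50, 78.2% of 6025 genes with 50 to 500 and 93.6% of 6356 genes with 500 or more. Intervals within -0.5 to 0.5 were found for 28.1% of all genes and 55.7% of those with 500 or more. The median SE was 0.23 over all genes, and 0.44, 0.22 and 0.15 in the order of these levels. TRPV2, for example, had an interval from 0.00 to 1.71, and NFATC1 from 0.06 to 0.83. These intervals do not allow for the number of genes tested, and the limma adjusted p was 0.789 for both. NFATC1 was also chosen for its gap between the groups, so an interval above 0 is no result about it.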

How the data were processed

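Gene values came as 1 deposited table of 9 libraries. Per the submitters' processing notes they were made with DESeq2 (no version given), so the deposited values are a normalized signal, read counts divided by 1 size factor per library. Dividing a library by its lowest nonzero value turned 100% of its entries into whole numbers (tolerance 0.001), which gave back read counts from the authors' table for 8 libraries. SKF-96365 3 had a step of 0.992, which the check took as possible rounding, so this library was left out of the count models. Its entries were whole multiples of that step too (100%), and steps of 0.986 (2-APB 3) and 1.014 (control 2) were accepted. Aligner, annotation, build and strand setting are not given in the sources used here. Library kits were for mRNA, per the labels' protocols.

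Symbols were matched by identifier, with 130 from GENCODE 29. Values were tested as log2(value + 1) with limma 3.58.1 (intensity trend, R 4.3.3). The 9 libraries shared the spread, the test was two-sided, and genes needed at least 10 in at least 3 libraries. A gene was called at an adjusted p under 0.05 (Benjamini-Hochberg over 17492 genes). A fold change is on the log2(value + 1) scale, which understates that of low genes. Intervals cover 95% and use the same fit. Reads have no molecular identifiers, and depth limits the genes of low level most.

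Named genes were TRPV2, the 15 with the widest gap between groups and the 10 with the largest log2 fold change in each direction (mean of at least 50), and of each list the member with the highest mean and up to 3 members without overlap; of these lists only part is printed. Genes alone in 1 library, SPCS2, SNRPGP10 and list members under a mean of 50 or beyond the first 3 were named after their values were seen. The rule, the lists and the comparison were chosen with earlier results of these data known. Alternatives were pseudocounts 0.5 and 5, no filter, a mean of at least 50, rescalings, other variance settings, only the groups compared, a replicate block, leaving out each library in turn, and count models of the recovered reads (DESeq2 1.42.0 and edgeR 4.0.16).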

Additional observations from a re-analysis of the deposited data

How the results depend on the processing

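The count of called genes was 0 under the pseudocounts, filters, rescalings and variance settings, with only the 2 groups compared and with edgeR. Leaving out 1 library gave 0 to 173 calls, with the 173 on leaving out control 3 and 0 for each of the other 8. DESeq2 called 2 genes, and leaving out both control 3 and SKF-96365 1, added after the data were seen, gave 4823. Of the 173 and the 4823, 16 (9.2%) and 197 (4.1%) were among the genes whose groups did not overlap in all 6 libraries. Genes whose groups did not overlap numbered 2170 with no filter, 649 with a mean of at least 50, 1103 and 1090 with upper-quartile and quantile rescaling, and 1716 to 6782 with 1 of the 6 libraries left out, the top value without control 3. They numbered 11944 without both. Smaller groups overlap less by construction.

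With the replicate number as a block the count was 0 and the smallest adjusted p 0.81. Deviations of same-numbered control and SKF-96365 libraries from their group means correlated at 0.498, -0.192 and 0.373 across genes. The first was the highest of all pairs between groups, while control 3 correlated better with SKF-96365 2 (0.443) than with SKF-96365 3. Deviations from a mean of 3 libraries depend on each other, so these values cannot decide whether the numbers pair libraries.

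Of 102 genes named, 2 changed sign under some alternative. MST1P2 turned from -0.27 to 0.89 without control 3, 0.15 without SKF-96365 1 and 1.31 without both, with -0.90 to 0.89 over the left-out libraries. SPCS2 turned from 0.06 to -0.03, -0.07 and -0.16 in the same order, with -0.07 to 0.19 over the left-out libraries. Of 1034 list medians under the 22 alternatives 999 moved by less than 1 SD and 35 by more. This SD was that of the list score between libraries of a group, pooled over control and SKF-96365. It is wide where control 3 and SKF-96365 1 stood apart, so the count is no measure of stability. DNA replication medians of -0.17 and -0.70, beside -0.42 with all libraries, counted as moves of less than 1 SD. The cause of these shifts was not tested. Genes under 50 normalized counts had the widest intervals.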

Other observations

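Lists not yet described held a second order of the libraries. The cholesterol synthesis and uptake list had scores of -0.28, 0.16 and 0.17 in control 1 to 3 and -0.39, 0.17 and 0.16 in SKF-96365 1 to 3, so that control 1 and SKF-96365 1 were the low libraries and the numbers 2 and 3 were level in both groups. Fatty acid synthesis had -0.23, 0.03 and 0.15 in control and -0.40, 0.22 and 0.23 with SKF-96365. Control 2 lay with control 3 for these lipid lists, whereas it lay with control 1 for DNA replication.

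Circadian clock genes had 13 positive and 4 negative log2 fold changes of 17 (median 0.33). The median was 0.12 without control 2 and 0.51 without control 3. NFIL3, a repressor of the clock, was the 1 member without overlap, at 170.5, 172 and 217 normalized counts in control and 229, 230.3 and 259.9 with SKF-96365. KRT80, the 1 keratin or junction gene of 23 without overlap, had 4112, 4860 and 2713 in control and 2591, 2530 and 2655 with SKF-96365, and control 3 stood just above the SKF-96365 libraries.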
